A study of Rattus norvegicus with 18 samples.

Results

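Of 986425 autosomal CpG sites of the rat hippocampus that were measured on both DNA strands, 1944 (0.197%) were listed with clearly different methylation levels on their 2 strands. A site was taken as the cytosine on the plus strand together with the cytosine of the same CpG on the minus strand, 1 base further on, and the 2 are called a pair below. A pair was kept where the plus-strand and minus-strand means over 18 rats differed by 20 percentage points (points) or more. It was left out where the level of either strand ranged over more than 60 points between rats, which removed 166 pairs that met the first condition. The members were thus selected on the strand difference of the 18-rat means, so that difference is described below and not tested.

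A CpG reads the same on both strands, so each site offers a cytosine for methylation on either side of the helix. After DNA replication the new strand is at first unmethylated, and the maintenance methyltransferase DNMT1, guided by UHRF1, copies the mark from the old strand, so that most CpGs in mammalian tissue end up with like levels on both strands. Sites methylated on 1 strand only are called hemimethylated, and they can be passing intermediates or stable states. Bisulfite sequencing reads the strands separately, since bisulfite converts unmethylated cytosine and leaves the strands no longer complementary. A plus-strand level and a minus-strand level therefore come from different reads, and they give no count of single DNA molecules methylated on 1 strand only.

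DNA came from the left hippocampus of 18 adult male Sprague-Dawley rats weighing 170 to 280 g, 1 library for each rat, of an age the sources used here do not give. It was measured by reduced representation bisulfite sequencing, which samples CpG-rich stretches next to sites cut by the enzyme MspI. The 4 groups were 4 sham and 4 seizure rats of intrahippocampal electrical kindling, where repeated stimulation through hippocampal electrodes builds up seizures, and 7 sham and 3 seizure rats of systemic kainic acid, a glutamate receptor agonist injected to bring on status epilepticus. Seizure rats had reached 3 class V seizures, the generalised stage, and their tissue was taken 24 hours after the last one. The sources used here do not say what the sham rats underwent, or name a litter, batch or day for any rat. The tissue was bulk, so a level is a mean over all its cell types, and the labelled tissue could not be checked against marker genes in a methylation table.

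The deposited table gave 1 methylation fraction for each cytosine and rat, with 2330883 cytosines and 0 missing values. It holds no read counts, and how deeply each cytosine was read is unknown. The share of all cytosines listed at exactly 0 ran from 8.89% to 25.4% between rats, and their mean level from 42.1% to 43.3%. Chromosome positions are those of the deposited table, on the rat build rn6. No sequence of that build was at hand, so pairs are named by position, and the gene or element at each was not analysed here.

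The member pairs were mostly sites with partial methylation on at least 1 strand, and few were all or nothing. The median level was 83.9% on the higher strand and 43.5% on the lower strand. In 899 members (46.2%) the higher strand was at 50% or above and the lower strand under 50%. Both strands were at 50% or above in 792 (40.7%), and both were under 50% in 253 (13.01%). The higher strand exceeded 90% in 779 members (40.1%), whereas the lower strand was under 10% in 247 (12.7%). Only 72 members had both, a strand over 90% facing a strand under 10%. The threshold of 20 points confines the pair level of a member, the mean of its 2 strands, to between 10 and 90%, and members made up 0.879% of the 221209 pairs at such levels that passed the range limit.

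Both directions were about equally frequent. The plus strand was higher in 937 members (48.2%) and the minus strand in 1007. By chromosome, the share of members with the plus strand higher ran from 37.8% on chromosome 9 (28 of 74) to 56.5% on chromosome 19 (39 of 69). Members lay on all 20 autosomes, from 0.131% of the measured pairs of chromosome 20 to 0.269% of those of chromosome 7. Per pair with a level of 10 to 90%, the lowest share was again that of chromosome 20, 0.482%, and the highest was that of chromosome 2, 1.31%.

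**Figure D1:**
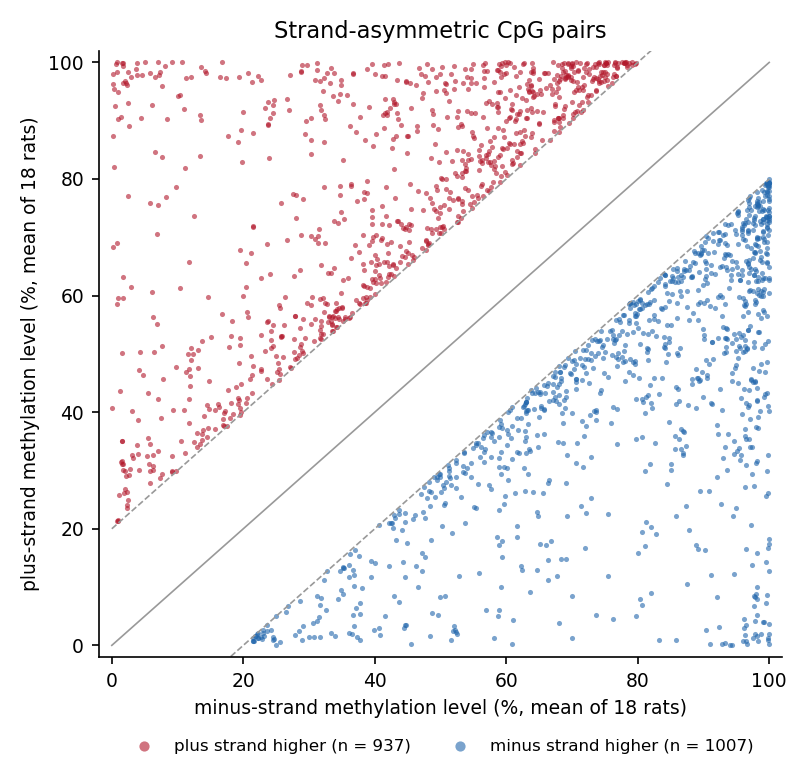
Each point is 1 of the 1944 member pairs, with its minus-strand level on the horizontal axis and its plus-strand level on the vertical axis, both in % and as means of 18 rats. Red points (937) have the higher level on the plus strand and blue points (1007) on the minus strand, the dashed lines mark the threshold of 20 points, and most points lie near it, with a thinner scatter out to the corners.

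Most members lay near the threshold, and a small set stood at the far end. The median strand difference was 28.7 points (quartiles 23.1 and 41.8), against 0.860 points over all 981321 pairs that passed the range limit. Of those pairs, 9773 differed by 10 points or more, 884 by 30 points or more, 327 by 50 points or more and 60 by 90 points or more. The medians of the higher and lower strand were 75.2% and 50.5% in the 1060 members of 20 to 30 points, 88.0% and 47.2% in the 557 of 30 to 50 points, and 92.9% and 31.9% in the 196 of 50 to 70 points. In the 71 members of 70 to 90 points the medians were 94.5% and 12.1%.

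At the threshold itself, the pair just inside with the smallest difference was chr9:47659181-47659182, with 20.6% on the plus and 40.6% on the minus strand. The nearest pair outside was chr19:26038374-26038375, with 56.9% and 76.9%. The spread between rats at such pairs was wide. At chr9:47659181-47659182 the strand difference ran from -42.1 to -1.46 points over the 18 rats, and at chr1:197643770-197643771, also just inside, it ran from -41.7 to 0.794 points.

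The 60 members of 90 points or more were near all-or-none pairs, with a median of 97.95% on one strand and 2.01% on the other. The plus strand was the higher one in 30 of them and the minus strand in 30. All 60 had their direction in all 18 rats, which a mean of that size and the range limit favour. No other member lay within 100 bp of 50 of them, and the smallest strand difference of any of the 60 in any rat was 38.9 points.

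The largest difference belonged to chr18:1252460-1252461, on chromosome 18. Its minus strand was at 100% in all 18 rats, and its plus strand was at 0% in 16 rats, at 2.04% in kainic acid sham rat 7 and at 1.22% in kainic acid seizure rat 1. Its mirror image was chr4:31746789-31746790, with the plus strand at 100% in all 18 rats. The minus strand there was at 0% in 16 rats, at 2.70% in kindling seizure rat 1 and at 11.8% in kainic acid sham rat 1. Each of these pairs was thus listed with 1 strand at 100% and the facing strand at 11.8% or below in every rat. Read counts and a sequence of the build were lacking. Whether the way each strand was prepared, read or mapped had a part in these values was not tested.

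The other 8 pairs at the far end looked alike. With the plus strand higher, chr5:1691057-1691058 had a plus strand of 98.8 to 100% over the rats, and a minus strand at 0% in 16 rats and at 5.26% and 6.67% in kindling sham rats 2 and 3. At chr14:51257712-51257713 the plus strand ran from 93.9 to 100% and the minus strand from 0 to 1.10%. At chr9:81505950-81505951 and chr6:15501219-15501220 the mean of the minus strand was 1.60% and 1.76%. With the minus strand higher, 4 pairs repeated the pattern in the other direction. The plus-strand means were 0.875% at chr15:59643726-59643727, 1.31% at chr13:79058711-79058712, 1.88% at chr7:1626084-1626085 and 0.736% at chr4:71863505-71863506. At chr15:59643726-59643727 the plus strand was at 0% in 14 rats, and the 4 rats above 0 were kindling seizure rats 1, 2 and 3 (3.33%, 4% and 5.56%) and kainic acid seizure rat 2 (2.86%). All 4 of those rats had seizures, while the other 3 seizure rats were at 0%, like the 11 sham rats. By contrast, the 2 rats above 0 at chr5:1691057-1691058 were sham rats. These values lie near 0 at unknown depth, the split was picked out after the values were seen, and a link to seizures was not tested.

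The direction of a member's strand difference was shared by nearly all rats. Choosing members on the mean of these same 18 rats, with the range limit, favours this and the size of the rat medians below. In 1690 members (86.9%) all 18 rats had the sign of the mean, in 177 members 17 rats did, and in 77 members 16 or fewer, down to 11. In 1143 members every rat differed by at least 10 points in that direction, and in 602 (31.0%) every rat differed by at least 20 points. Taken over rats, the median strand difference of the members in their own direction was 30.1 to 32.2 points in each of the 18. By group, the mean ± SD of these rat medians was 31.5 ± 0.305 points in the 4 kindling sham rats and 31.5 ± 0.1999 in the 4 kindling seizure rats. It was 30.9 ± 0.632 points in the 7 kainic acid sham rats and 31.4 ± 0.778 in the 3 kainic acid seizure rats. The 4 groups overlapped.

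**Figure D2:**
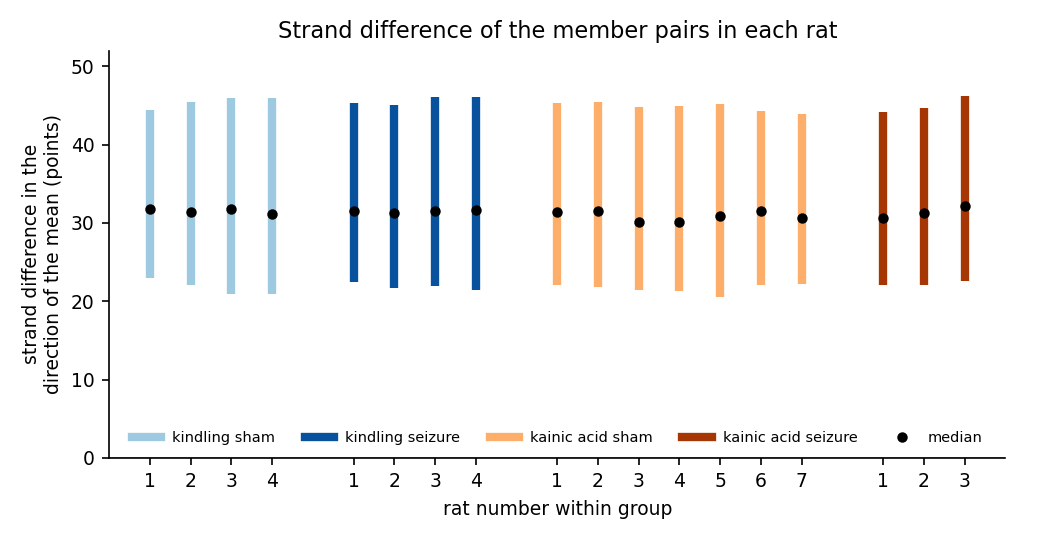
For each of the 18 rats, the black point is the median and the bar the quartiles of the strand difference of the 1944 member pairs, in points and counted in the direction of the 18-rat mean. Rats are numbered within their group on the horizontal axis, and the medians of all of them lie between 30.1 and 32.2 points.

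Between 5 and 42 members (0.257 to 2.16%) pointed the other way in a given rat. The fewest were in kainic acid sham rat 2, where 13.1% of all cytosines were listed at exactly 0. The most were in kindling sham rat 4, with 42 members and 25.4% of cytosines at 0, and in kindling sham rat 3, with 41 members and 18.1%. Kainic acid sham rat 5 followed with 37 members and 20.7%, and kindling seizure rat 4 with 31 members and 20.7%. The rats with the most members against the direction thus also had the largest shares of cytosines at 0, and the part of depth in this was not tested.

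Rats left out of the choice showed the same directions. When the rule was applied to the 8 kindling rats alone it chose 2213 pairs, of which 1799 were also members. In the 10 kainic acid rats, 2202 of these (99.5%) kept their direction, 1706 (77.1%) still differed by 20 points or more, and the median was 27.5 points against 28.1 in the kindling rats. All 10 kainic acid rats had the direction in 1897 of them (85.7%), and the means of 11 pairs turned round. When the 10 kainic acid rats chose 2103 pairs, all 2103 kept their direction in the 8 kindling rats, 1697 (80.7%) still differed by 20 points or more, and the median was 28.5 points against 28.2. Asymmetry chosen in 1 model was thus present in the rats of the other, sham and seizure rats together.

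The strand difference of members varied between rats more than that of other pairs with intermediate levels. Its SD over the 18 rats had a median of 9.22 points in members, against 7.20 points in the 219265 other pairs with a pair level of 10 to 90% that passed the range limit. The lower strand was the more variable one in 1288 members, with a median SD of 7.17 points against 5.09 on the higher strand. It also lay nearer to the middle of the scale, with a median level of 43.5% against 83.9%. The part of level and depth in its larger SD was not tested. The pair level itself had a median SD of 5.12 points in members and 4.49 in the other pairs. Among members, the SD of the strand difference ran from 0.546 points at chr18:1252460-1252461 to 25.5 points.

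In the 3 members with the widest spread, 1 strand was high in all rats and the other lay at either of 2 levels. At chr13:13337451-13337452 (SD 25.5 points) the minus strand ran from 95.2 to 100%. Its plus strand was at 61.7%, 100%, 42.9% and 55.2% in the kindling sham rats and at 94.7%, 48.2%, 98.0% and 100% in the kindling seizure rats. In the kainic acid sham rats it ran from 41.2 to 100%, and in the kainic acid seizure rats it was at 48.6%, 100% and 46.7%. In all, 8 rats lay between 86.2 and 100% and 10 between 41.2 and 61.7%, and every group had rats of both kinds. The plus strand of chr17:46276489-46276490 (SD 23.9 points) was likewise at 85.6 to 95.9% in 8 rats and at 36.4 to 68.2% in 10, facing a minus strand of 90 to 96.5%. At chr2:104268252-104268253 (SD 23.9 points) it was the minus strand that split, with 10 rats at 82.6 to 96.0% and 8 at 45.5 to 61.2%, against a plus strand of 84.6 to 100%. At these 3 pairs the 18-rat mean difference of 28.1, 26.5 and 22.4 points in size was thus carried by part of the rats of each group.

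Members lay close together more often than other pairs. Another member was found within 100 bp of 528 members (27.2%), against 0.627% of the non-member pairs that passed the range limit and 1.49% of those with a pair level of 10 to 90%. Within 10 bp the shares were 14.1%, 0.0815% and 0.161%. The median number of other measured cytosines within 100 bp was 8 around members, 6 around other pairs of intermediate level and 14 around all pairs, and the part of this density in the shares was not tested. These shares describe 1 set of positions and carry no test, and neighbouring cytosines can share reads.

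Joining members with gaps of at most 100 bp gave 1416 single members and 207 runs of 2 or more, which held 528 members. Of these runs 149 had 2 members, 35 had 3, and 23 had 4 or more, up to 12. All members of a run pointed the same way in 164 of the 207 runs (79.2%) and in 19 of the 23 longer ones. In 149 of the 207, every measured pair between the first and the last member was itself a member. Members in runs of 4 or more had a median of 65.6% on the higher and 28.8% on the lower strand, while single members had 84.5% and 45.4%. Longer runs thus lay at lower levels on both strands, with a median difference of 33.0 points against 27.6 in single members. They also lay among more measured cytosines, a median of 20 others within 100 bp against 6 around single members. The part of this density in their levels was not tested.

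The longest run held 12 members in 56 bp, chr1:11906146-11906201, and all 12 measured pairs in it were members. The plus strand was the higher one throughout, with pair means of 31.1 to 51.3%, and the minus strand had means of 4.01 to 12.1%. The plus strand was at 51.01% at 11906200, the last member, and at 16.5% at the next measured pair, 11906205, where the minus strand was at 9.47%. Averaged over the run, the strand difference was 42.5, 27.1, 49.8 and 23.9 points in the kindling sham rats and 40.6, 34.7, 50.2 and 30.7 points in the kindling seizure rats. In the kainic acid sham rats its lowest, median and highest values were 20.8, 34.8 and 47.0 points, and in the kainic acid seizure rats it was 25.1, 41.2 and 42.4 points. Every rat had the asymmetry, and all 4 groups overlapped.

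On chromosome 7, a run of 9 members spanned 116 bp, chr7:22452269-22452384. Its plus strand had pair means of 40.4 to 52.8% and its minus strand 11.004 to 24.1%. At 22452255, the last measured pair before the run, the strands were at 37.8% and 37.6%. At 22452269, the first member, the plus strand was at 52.4% and the minus strand at 24.1%. The mean ± SD of the strand difference over the run was 36.7 ± 6.22 points in the 4 kindling sham rats and 39.6 ± 10.3 in the 4 seizure rats of that model. With kainic acid it was 30.6 ± 8.62 in the 7 sham rats and 30.9 ± 5.92 in the 3 seizure rats. Within each model, the means of sham and seizure rats differed by less than the SD of either group.

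A run of 9 members on chromosome 16, chr16:48450592-48450667, had the opposite direction and a constant higher strand. Averaged over the run, its minus strand was at 96.6 to 97.7% in every rat. The plus strand was at 61.0%, 54.7%, 53.1% and 43.2% in the kindling sham rats and at 27.0%, 27.4%, 59.3% and 61.6% in the kindling seizure rats. Its lowest, median and highest values were 29.98%, 55.9% and 63.9% in the kainic acid sham rats, and the kainic acid seizure rats had 60.6%, 41.5% and 51.1%. These averages hide a split along the run. At its first 6 pairs, kindling seizure rats 1 and 2 and kainic acid sham rats 1 and 7 were at 3.49 to 22.9% on the plus strand and the other 14 rats at 22.7 to 65.4%. At its last 3 pairs, all 18 rats were at 47.5 to 74.1%. Rats thus differed mainly on the plus strand of the first 6 pairs, and the 4 low rats came from 2 groups. At 48450689, the next measured pair, the strands were at 90.1% and 91.3%.

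**Figure D3:**
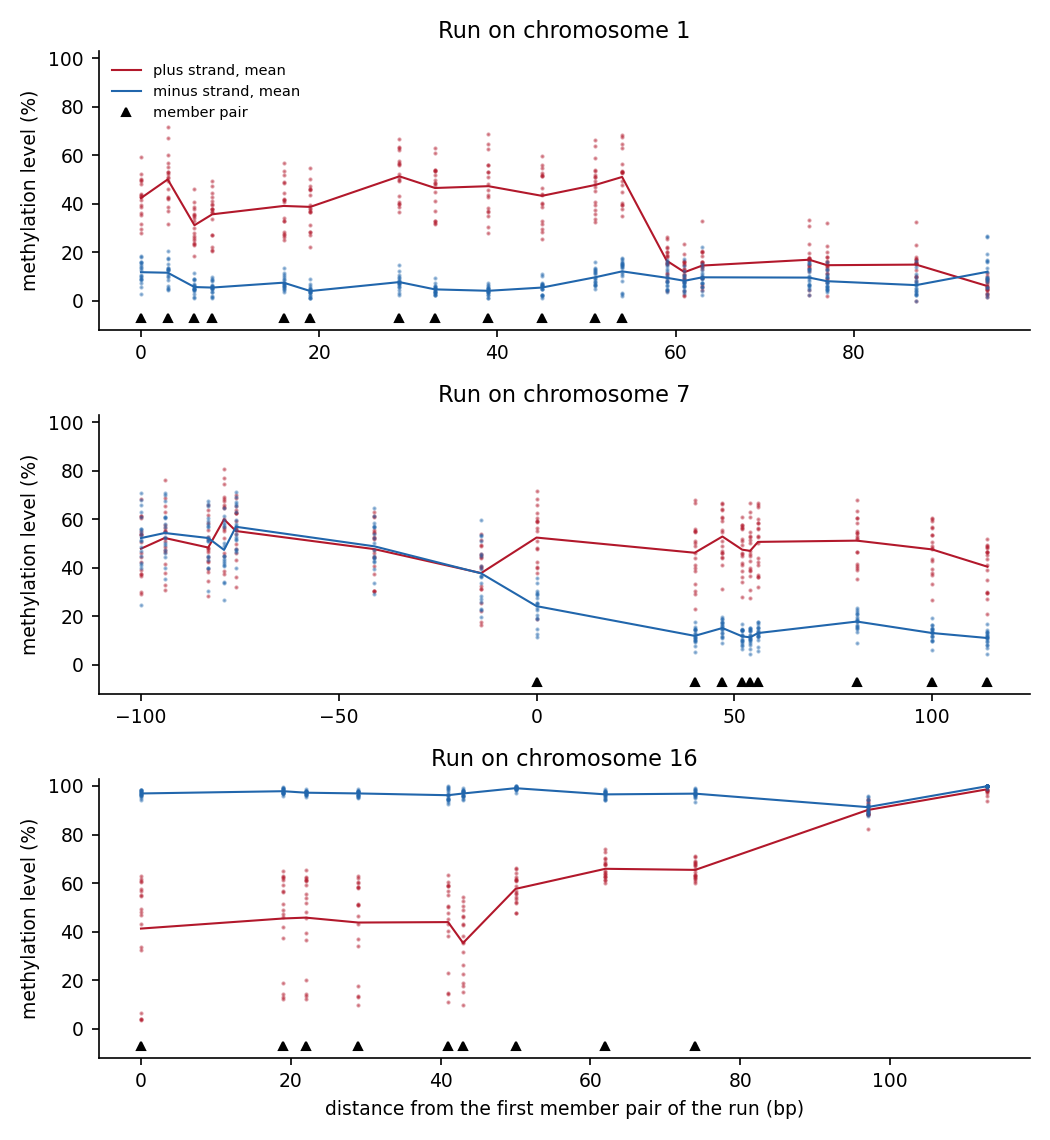
Methylation level in % of the plus strand (red) and the minus strand (blue) at each measured CpG pair in and around the 3 longest runs, against the distance in bp from the first member of the run. Points are the 18 rats, lines are their means and triangles mark member pairs, and in each panel the strands part within the run and lie closer outside it.

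Pairs around a member that were not members themselves leaned slightly in its direction, over a short distance. At 1 to 10 bp, 63.4% of 844 such neighbours had the member's direction, with a mean strand difference of 2.26 points in that direction. At 26 to 50 bp the share was 55.5% and the mean 1.08 points, and beyond 100 bp, up to 200 bp, they were 52.4% and 0.0419 points. Neighbours that were members followed the direction more often at short range. At 1 to 10 bp, 362 of 1206 neighbours (30.02%) were members, and 340 of these 362 (93.9%) had the same direction. At 51 to 100 bp, 5.12% of neighbours were members and 132 of 180 had the same direction, and from there to 200 bp it was 16 of 42. Beyond 200 bp, up to 500 bp, members were 1.81% of neighbours and 78 of 116 (67.2%) had the same direction. The share of neighbours that were members was thus highest at short range, and each pair of members is counted from either side.

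**Figure D4:**
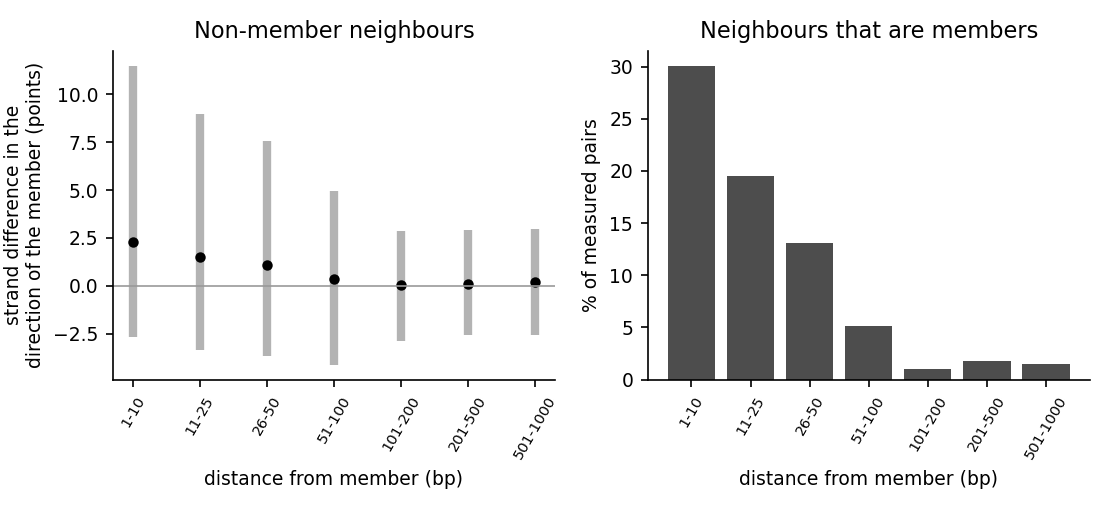
Left, strand difference in points of non-member pairs around members, counted in the direction of the member, by distance in bp (point, mean; bar, 10th to 90th percentile). Right, share in % of the measured neighbours that are members themselves, which falls from 30.02% at 1 to 10 bp to 0.999% beyond 100 bp, up to 200 bp.

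The methylation of the surrounding cytosines was more often near the higher strand. At least 2 other measured cytosines lay within 100 bp of 1834 members, with a median mean level of 69.4% (quartiles 42.1 and 85.3%). This local level was nearer to the higher strand in 1166 members (63.6%) and nearer to the lower strand in 668. It fell between the 2 strands in 1093 members (59.6%), above both in 442 and below both in 299. Among the 50 such members of 90 points or more, it was nearer to the higher strand in 35 and between the strands in 41. The 2 directions of departure were thus both common: a strand lower than its surroundings and a strand higher than them. At chr9:81505950-81505951 the local level was 97.4%, close to the plus strand, and at chr7:1626084-1626085 it was 37.1%, between the strands.

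Whether seizures went with a change in asymmetry was asked by comparing the strand difference (plus minus minus) between seizure and sham rats of each model, with limma on 454041 pairs whose strand difference ranged over at least 10 points between rats. Of the 1944 members, 1920 were tested. No pair of the table had a Benjamini-Hochberg adjusted p under 0.05 in kindling or in kainic acid (0% of pairs called in either), and 0 members were called. The smallest adjusted p of a member was 0.538 in kindling and 1 in kainic acid. At an unadjusted p under 0.05 there were 129 members in kindling (6.72%, against 5.72% of all pairs tested) and 106 in kainic acid (5.52%, against 4.31%). Seizure and sham rats did not overlap at 54 members in kindling (2.81%, against 2.54% of all pairs) and at 42 in kainic acid (2.19%, against 1.67%). These shares lie near those of all pairs. A change within cells and a change in the mix of cell types could not be told apart in bulk tissue.

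Counted in each member's own direction, the estimate was wider in seizure rats for 975 of 1920 members (50.8%) in kindling and for 1010 (52.6%) in kainic acid, with medians of 0.171 and 0.388 points. At an unadjusted p under 0.05, 63 were wider and 66 narrower in kindling, and 65 were wider and 41 narrower in kainic acid. The 95% interval of a single member reached 12.9 points to either side in kindling and 12.6 in kainic acid at the median. These intervals are not adjusted for the number of pairs tested.

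The members of smallest p show what the spread between rats allows. In kindling the first was chr6:134914653-134914654, where the minus strand is the higher one. The strand difference was -23.8, -36.1, -26.6 and -17.1 points in sham rats and -65.2, -57.6, -59.1 and -49.9 points in seizure rats. The kindling groups did not overlap, with a difference of -32.04 ± 5.85 points (SE, limma adjusted p = 0.538). The lower, plus strand was at 66.5% ± 12.98 in sham and 40.9% ± 5.15 in seizure rats (SD, n = 4 each), and the minus strand at 92.4% ± 5.66 and 98.8% ± 1.42. In kainic acid the sham rats ran from -51.4 to -20.3 points (median -38.4), and the seizure rats, at -42.8, -40.8 and -45.0, lay within that range.

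Of the next 4 members in kindling, 3 also had a wider mean strand difference in seizure rats and 1 had a narrower one. At chr5:141405429-141405430 it was -13.3, -15.8, -18.5 and -10.5 points in sham rats and -31.4, -30.4, -31.0 and -19.4 in seizure rats, with the plus strand at 2.16% or below in every rat. At chr5:33717986-33717987 it was -30.4, -25.7, -36.6 and -42.6 points in sham rats and -16.7, -18.4, -2.97 and -0.510 in seizure rats. The estimates at chr13:114016744-114016745 and chr9:8376655-8376656 were -20.4 and -23.5 points. The last rests in part on kindling seizure rat 1: without it the estimate was -14.3 points. Groups did not overlap at 3 of these 4 members, and at chr9:8376655-8376656 the largest sham value in size, -23.1 points, met the smallest seizure value, also -23.1. No member passed the threshold, with adjusted p-values of 0.777 to 0.799.

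In kainic acid, chr6:103935073-103935074 came first. Its strand difference ran from -34.8 to -1.24 points in sham rats (median -20.8) and was -45.5, -48.0 and -42.1 points in seizure rats, a difference of -24.0 ± 5.97 points (SE, limma adjusted p = 1). The difference lay on the plus strand, at 78.7% ± 11.5 in sham (SD, n = 7) and 54.8% ± 2.92 in seizure rats (SD, n = 3), since the minus strand was at 99.3% or above in all 18 rats. At chr14:97422768-97422769 it was the higher, minus strand that differed, with 83.6 to 100% in sham and 48.2 to 73.1% in seizure rats, and the strand difference was narrower by 26.1 ± 6.50 points (SE). At chr7:34325566-34325567, chr7:99525759-99525760 and chr20:5352169-5352170 the estimates were -24.9, -21.1 and 19.4 points. The kainic acid groups did not overlap at any of the 5. The kindling rats of the same 5 members overlapped between sham and seizure.

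**Figure D5:**
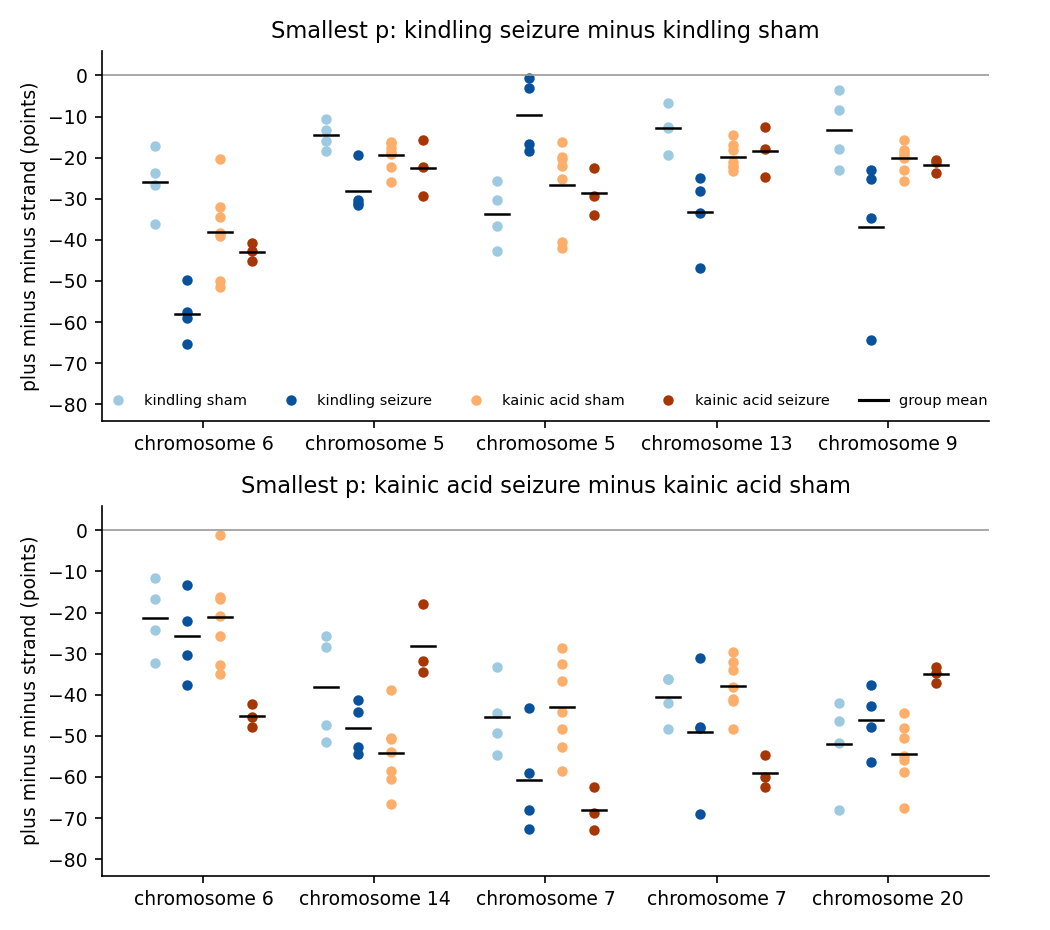
Strand difference (plus minus minus, in points) in each rat at the 5 members of smallest p in kindling (top) and in kainic acid (bottom). Points are rats coloured by group and bars are group means, and the estimates lie between -32.04 and 26.1 points, with none past the adjusted threshold.

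The difference between the models, taken as the effect in kainic acid less the effect in kindling, was tested in the same fit. Again 0% of the 454041 pairs and 0 members were called, with a smallest adjusted p of a member of 0.985. At an unadjusted p under 0.05 there were 118 members (6.15%, against 4.83% of all pairs). The first was chr3:176164452-176164453, with a difference of 39.5 ± 9.38 points (SE, limma adjusted p = 0.985). There the strand difference was -17.6, -24.7, -19.4 and -34.2 points in kindling sham rats and -38.9, -40.9, -46.0 and -50.8 in kindling seizure rats. It ran from -60.6 to -23.3 points in kainic acid sham rats (median -33.8) and was -8.33, -17.9 and -28.7 in kainic acid seizure rats. The kindling groups were apart and the kainic acid groups overlapped. The other 4 were chr2:161566051-161566052 (30.4 points), chr1:87147506-87147507 (-51.1 points), chr13:80981187-80981188 (25.2 points) and chr14:97422768-97422769 (36.1 points). At chr1:87147506-87147507 the kindling sham rats lay far apart, at -43.3, -47.1, -0.420 and -52.4 points.

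The pair level asks instead whether the mean of the 2 strand levels of a site differed. It was tested at 244372 pairs with a range of at least 10 points, among them 1761 of the 1944 members. No member was called by limma in any of the 3 comparisons, while 0% of all pairs were called in kindling, 0.00164% (4 pairs) in kainic acid and 0.000818% (2 pairs) in the difference between models. The smallest adjusted p of a member was 0.634, 1 and 0.718. At an unadjusted p under 0.05 there were 89 members in kindling (5.05%, against 5.66% of all pairs), 77 in kainic acid (4.37%, against 3.42%) and 92 for the difference between models (5.22%, against 4.42%). Groups did not overlap at 32 members in kindling (1.82%, against 2.44%) and 34 in kainic acid (1.93%, against 1.55%). The median difference of members was 0.445 points in kindling and 0.411 in kainic acid, beside 0.477 and 0.492 over all pairs tested. The medians of members thus lay near those of all pairs, and the 95% interval of a member reached 7.74 and 7.55 points to either side at the median.

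For the pair level in kindling, the smallest p was at chr10:104071280-104071281. It was at 63.6%, 69.8%, 63.6% and 58.1% in sham rats and at 74.4%, 74.0%, 82.3% and 82.7% in seizure rats, a difference of 14.6 ± 2.97 points (SE, limma adjusted p = 0.634). Both strands were higher in the seizure rats, the plus strand at 66.1% against 47.1% and the minus strand at 90.6% against 80.5%. The kainic acid groups overlapped there, with 71.4 to 77.0% in sham and 65.8 to 74.3% in seizure rats, and the difference between the models was -18.4 ± 4.15 points (SE, limma adjusted p = 0.718). The next 4 in kindling were chr19:15395896-15395897 (18.6 points), chr9:113942759-113942760 (14.3 points), chr18:32139393-32139394 (-7.30 points) and chr8:61041860-61041861 (11.5 points). In the last of these sham rat 4, at 84.6%, lay above seizure rat 4, at 82.7%.

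In kainic acid the pair of smallest p was again chr14:97422768-97422769, at 58.2 to 69.8% in sham rats (median 63.7%) and 39.3%, 55.9% and 42.0% in seizure rats, a difference of -18.5 ± 4.07 points (SE, limma adjusted p = 1). Its minus strand was at 91.4% ± 5.57 in sham (SD, n = 7) and 59.8% ± 12.5 in seizure rats (SD, n = 3), and its plus strand at 37.2% ± 6.14 and 31.7% ± 6.39. Also named above for their strand difference were chr6:103935073-103935074 (-11.9 points) and chr20:5352169-5352170 (-11.4 points). The remaining pairs were chr5:153295909-153295910 (-20.1 points) and chr19:39724664-39724665 (14.2 points). At chr5:153295909-153295910 the minus strand was at 53.5% in kainic acid sham rat 7 and at 91.2 to 97.1% in the other kainic acid sham rats. It was at 45.9 to 57.7% in the kainic acid seizure rats.

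For the difference between the models, chr6:126673254-126673255 and chr6:126673291-126673292 were neighbouring members with like values. Neighbouring cytosines can share reads, and kainic acid sham rat 5 had the same pair level at both, so the 2 pairs may not be independent. At the first, the pair level was 65.6%, 71.3%, 81.7% and 78.6% in kindling sham and 69.97%, 54.2%, 59.0% and 62.5% in kindling seizure rats. In kainic acid it ran from 49.6 to 67.3% in sham rats (median 59.96%) and was 72.0%, 77.1% and 62.1% in seizure rats. The difference between the models was 23.8 ± 6.30 points at the first and 23.3 ± 5.82 at the second (SE, limma adjusted p = 0.817 at both). The members chr1:87147506-87147507 (-26.7 points) and chr15:2372572-2372573 (-16.3 points) had differences of the other sign. At chr1:87147506-87147507 rats of 1 group lay far apart. Its plus strand was at 50.8%, 52.9%, 97.6% and 44.1% in kindling sham and at 92.1 to 100% in kindling seizure rats. It ran from 61.2 to 93.8% in kainic acid sham and from 50.7 to 65.8% in kainic acid seizure rats.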

How the data were processed

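The authors deposited a table of methylation fractions (beta values from 0 to 1, per the labels and the values themselves) for single cytosines, each strand listed separately, in 18 rats. Tools named in the submitters' processing notes, with neither versions nor roles, are methylKit, Bismark, Bowtie2, Trim Galore and FastQC, beside the build rn6. The sources used here give no coverage minimum. The labels' library names tie each column to its rat, and no column (0) went unused.

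Fractions were multiplied to percent. Pairs were formed on chromosomes 1 to 20, from 2279082 cytosines. For each pair with a range of at least 10 points over the rats, the strand difference and the pair level were fitted with limma 3.58.1 in R 4.3.3 (package data.table, version 1.17.8), with 4 groups and 14 residual degrees of freedom, the variance prior being trended on the pair level. P-values were Benjamini-Hochberg adjusted over all pairs of a comparison. The fit was tested on simulated strand differences with normally distributed noise, independent between pairs, and shifts added only at pairs of intermediate level. The share of shifts recovered is not reported here, so this test does not show what could be called in the measured values. Values of a single rat have no interval, because depth is unknown. Summaries used Python 3.11.15, pandas 2.3.3, numpy 2.4.6 and matplotlib 3.10.9.

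The member pairs, tests and rules were chosen with earlier results of these data known. The pairs named are the 5 with the largest difference in each direction, the 3 longest runs, the 3 nearest the threshold on each side, the 3 with the smallest and the 3 with the largest SD over rats, and the 5 members of smallest p in each comparison, of which those most telling of the spread are given in full.

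Alternatives covered the threshold, the range limits, medians in place of means, the run gap, the log2 odds scale, 1 common variance prior, array weights, fits within 1 model, the replicate number as a block, all chromosomes, another adjusted threshold and leaving out each rat. Sequence, base composition and gene annotation around the pairs were not analysed here.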

Additional observations from a re-analysis of the deposited data

Results flagged for a closer look

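Single rats that stood apart from the others of their group were looked for in the strand difference of the 43 named pairs, the 3 runs and the summaries over all members, in each of the groups of 4, 4 and 7 rats, which gave 144 sets of values. The kainic acid seizure group, with 3 rats, was too small to be screened. In 15 of the 144 sets the gap between the highest or lowest rat and the rest exceeded the 95% critical value of Dixon's test. Chance passes that value in about 1 group in 20 where values are normally distributed. Some sets lay at the end of the scale or at pairs named for their spread or small p. That rate is therefore no measure for the 15.

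Of the 15, 9 lay at pairs of the far end, where the other rats were at or near 100 points and a small departure stands out. At chr4:31746789-31746790 these were kindling seizure rat 1 (97.3 points) and kainic acid sham rat 1 (88.2 points), and at chr5:1691057-1691058 kindling seizure rat 1 (99.1 points). At chr9:81505950-81505951 they were kindling sham rat 1 (96.6 points), kindling seizure rat 3 (95 points) and kainic acid sham rat 1 (87.5 points). With the minus strand higher they were kainic acid sham rat 7 at chr18:1252460-1252461 (-97.96 points), kainic acid sham rat 3 at chr15:59643726-59643727 (-98.4 points) and kainic acid sham rat 6 at chr13:79058711-79058712 (-95.6 points).

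The other 6 were departures of intermediate pairs. At chr12:48599646-48599647, just inside the threshold, kindling sham rat 3 was at 4.58 points, and the other 3 at 13.9 to 15.0. At chr13:13337451-13337452 kindling seizure rat 2 was at -46.9 points and the others of its group at -5.26 to 1.49. At chr2:104268252-104268253 kindling sham rat 1 was at 46.2 points and the others at -8.96 to -0.118. At chr5:141405429-141405430 kindling seizure rat 4 was at -19.4 points and the others at -31.4 to -30.4. At chr18:32139393-32139394 kainic acid sham rat 1 was at -40.4 points, with the others at -33.6 to -28.7. At chr5:153295909-153295910 kainic acid sham rat 7 was at 46.5 points and the others at 2.94 to 8.77.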

How the results depend on the processing

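No member was called in any of the 6 comparisons under any of 160 alternatives fitted with limma, and the smallest adjusted p of a member over all of them was 0.182. The 30 named estimates of members kept their sign in all 797 alternatives. They were picked for the smallest p in these same rats, so a reversal was unlikely from the start and the kept sign is no independent support. The number of members follows the threshold, with 9773 at 10 points and 884 at 30 points. Leaving out each rat in turn gave 1946 to 1998 members, of which 1891 to 1911 were among the 1944, and 47.98 to 48.7% with the plus strand higher. Directions chosen in kainic acid rats held in 100% of pairs read in kindling rats, against 99.5% the other way.

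Counts over all pairs were small and moved. For the strand difference they were 2 in kainic acid with no range filter, 1 in kainic acid and 1 for the difference between models on the log2 odds scale, and 0 to 2 in kindling without 1 rat. For the pair level in kindling there were 6 in a fit within 1 model, and 0 to 26 without 1 rat. In kainic acid there were 2 on the log2 odds scale, 7 with array weights, 7 within 1 model, 7 at an adjusted p under 0.10, and 3 to 21 without 1 rat. For the difference between models there were 1 on the log2 odds scale, 8 with array weights, and 2 to 21 without 1 rat.

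These pair-level counts moved most with few rats. In kindling there were 26 calls without kindling sham rat 1 and 15 without kindling sham rat 2, and at most 2 without any other rat. In kainic acid there were 21 without kainic acid seizure rat 2, 11 without kainic acid seizure rat 1, 8 without kindling sham rat 2, and 7 without kindling sham rat 1 or 4. For the difference between models there were 21 and 13 without kainic acid seizure rats 2 and 1. There were 19 and 13 without kindling sham rats 1 and 2, 6 without kindling sham rat 4 or kainic acid sham rat 2, 5 without kindling sham rat 3 or kainic acid sham rat 6, and 4 without kindling seizure rat 2. The cause was not tested. A kainic acid seizure group of 2 rats is assumed to vary like the others. The strand-difference counts in kindling were 2 and 1 without kindling sham rats 1 and 2. Unknown depth limits all single values, and 3 to 7 rats a group limit what could be called.

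With the replicate number as a block, 0 members were called. Over all pairs the replicate block gave 1 call for the strand difference in kindling, and for the pair level 3 in kindling, 1 in kainic acid and 8 for the difference between models. Deviations of sham and seizure rats with the same number correlated at -0.0002 to 0.0104 for the strand difference and at -0.0745 to 0.1206 for the pair level. With different numbers they correlated at -0.0193 to 0.0165 and at -0.2659 to 0.2018. The means were slightly higher with the same number, 0.0049 against -0.00113 for the strand difference and 0.0200 against -0.00406 for the pair level. The labels tie no number to a litter, batch or day, and the numbers were not taken as pairs.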
